A study of Homo sapiens with 2 samples.

Results

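The genes of the integrated stress response were examined in HT-29, a line of human colorectal adenocarcinoma cells, after transfection of siRNA against MYC. They are ATF4, its dimer partner CEBPG, the stress-induced factors ATF3, ATF5 and DDIT3, the effectors ASNS, CHAC1 and SESN2, and the feedback genes TRIB3 and PPP1R15A. These 10 genes were chosen by name and function, with earlier results of these data known. Every probe set that names 1 of them alone was taken, which gave 20 of the 54675 probe sets on the array and 10 of the 19775 genes that some probe set names alone. The study used 2 arrays. Cells on 1 array had received a pooled siRNA directed at MYC and cells on the other a pooled non-targeting siRNA, each at 20 nM for 24 h of reverse transfection, and they were taken after 48 h. The treatment field of the control array reads None, and it is called control siRNA here because the protocol names a non-targeting pool. Each condition was 1 array of 1 cell line.

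When a cell lacks amino acids, accumulates unfolded protein or has failing mitochondria, kinases phosphorylate the initiation factor eIF2, which lowers translation in general and raises translation of the ATF4 mRNA. The ATF4 protein, a transcription factor of the bZIP family, then turns on genes of amino acid synthesis, amino acid uptake and tRNA charging. In prolonged stress it also induces DDIT3, known as CHOP, and genes that shut the response off. The arrays measured mRNA only, and for ATF4 and ATF5 the amount of protein is set largely at translation.

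Because each condition was measured once, the differences have no replicate check, and no test was made or p-value computed. Values are MAS5 signals, the intensity summary of a probe set, scaled to a mean of 100 per array. Signals under 50 were set to 50 before the signal with MYC siRNA was divided by that with control siRNA and the log2 ratio taken, and a probe set at or under 50 on both arrays was given no ratio. As a measure of technical error, the log2 ratios of different probe sets for 1 gene had an SD of 0.24 in dim, 0.22 in middle and 0.17 in bright genes (1201, 1201 and 1202 genes), which leaves out the variation between cultures.

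MYC, the target of the siRNA, read 1963 on the control array and 1640 on the MYC siRNA array. This is a log2 ratio of -0.26 (1.20-fold lower), and 26.8% of the 500 probe sets nearest to it in signal had a ratio at least as low. MYC mRNA was thus little lower on the array labelled MYC siRNA, and the arrays do not measure MYC protein. The study examined MYC protein in HT-29 cells by immunoblot after MYC siRNA, and reported knockdown with decreased cell growth. By gene set enrichment it also reported curated MYC target sets among the genes decreased with MYC siRNA. Sets of mTORC1 signalling and of the unfolded protein response were listed there as well. Of 8 markers of colon epithelium, 7 were above 50 on both arrays, while CDX2 was at 1.67 and 0.621. Of 5 markers of other cell types only COL1A1 was above 50, at 94.7 (control) and 78.9 (MYC siRNA). When the 8917 genes above 50 on at least 1 array were split by signal into 5 groups of like size, the median log2 ratio was 0.15 in the dimmest and -0.10 in the brightest. Each array was scaled to the same mean, so a change in total mRNA per cell would not show, and in bulk RNA fewer cells with a transcript and less of it per cell cannot be told apart.

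The members differed in direction and in size. ASNS, TRIB3 and ATF4 itself were lower with MYC siRNA, by 2.15-fold, 1.63-fold and 1.45-fold at their brightest probe sets. CEBPG and ATF5 had log2 ratios below 0 there that were smaller in size than the SD between probe sets, and DDIT3, PPP1R15A and SESN2, all at low signal, had ratios above 1. ATF3 and CHAC1 were at or under 50 on both arrays. Among the 8 members above 50 on at least 1 array, 5 were lower and 3 higher, whereas 46.5% of all 8917 such genes were lower and 53.5% higher. By at least 1.5-fold 2 members were lower, against 5.72% of all genes, and 0 were higher, against 10.4%. By at least 2-fold, the threshold in the methods of the study, 1 member was lower, against 0.695% of all genes, and 0 were higher, against 2.73%. SESN2 counts among the 8 only through its signal with MYC siRNA, so it could not have come out lower. The median log2 ratio was -0.20 over these members and 0.03 over all genes above 50. With signals under 25 set to 25, which brings in ATF3 and CHAC1, the median over all 10 members was -0.00080, with 5 lower and 5 higher.

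**Figure D1:**
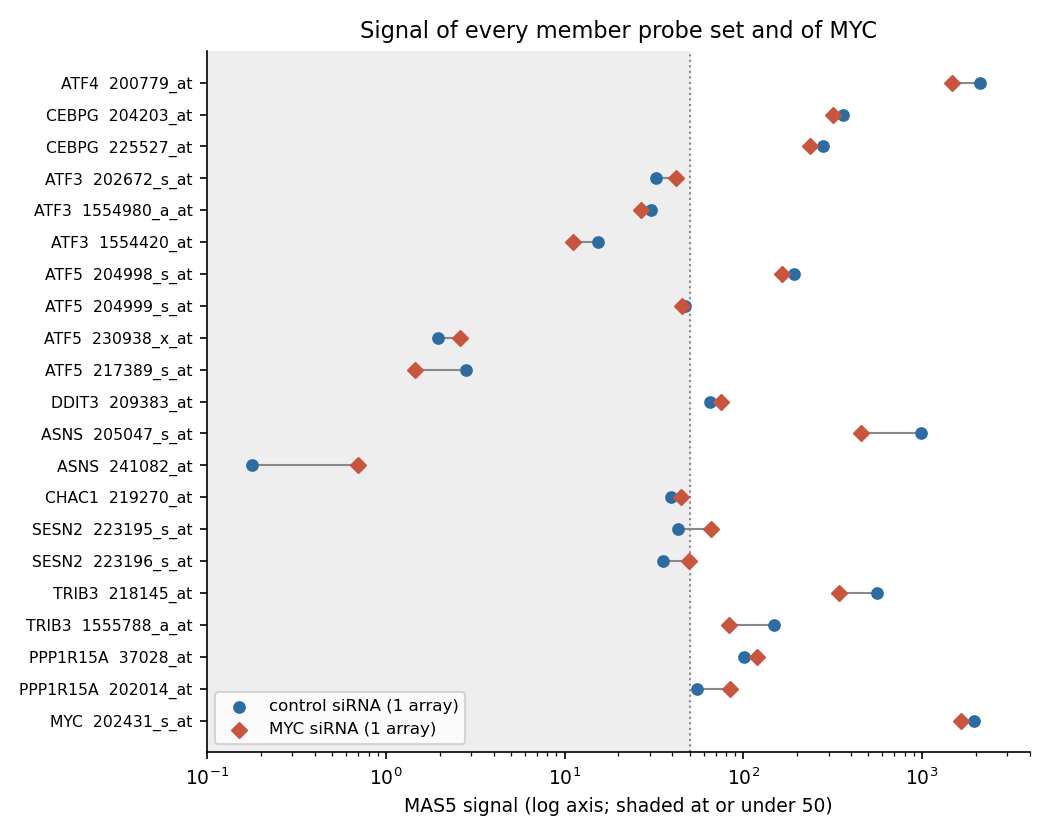
MAS5 signal (x axis, log scale) of each of the 20 member probe sets and of MYC (y axis) with control siRNA (blue circles) and MYC siRNA (red diamonds), 1 array each, with signals at or under 50 shaded. The main probe sets of ASNS, TRIB3 and ATF4 lie right of the shaded area with the diamond to the left of the circle, and 9 member probe sets lie wholly inside it.

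ASNS, the asparagine synthetase that makes asparagine from aspartate and glutamine, had the lowest ratio among the members. Its probe set 205047_s_at read 980 on the control array and 456 on the MYC siRNA array, 53.4% lower (log2 ratio -1.10). This difference exceeded the SD of 0.17 between probe sets of bright genes, and ASNS ranked 37th from the lowest of 8917 genes. Only 0.4% of the 500 probe sets nearest in signal had a ratio as low. The other ASNS probe set, 241082_at, was at 0.177 and 0.699 and carries no information on the ratio. The ASNS value therefore rests on 1 probe set, whose suffix marks probes that can bind several transcripts.

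The 250 bases before the annotated ASNS start (RefSeq, GRCh38.p14, chr7:97872409-97872658, minus strand) are shown because ASNS had the largest difference and its promoter holds the amino acid response sequence bound by ATF4 with C/EBP partners. Capitals mark the match to TGATGNAA, the letters searched for this C/EBP-ATF response element, where N is any base. It lay 68 to 61 bases before the start, on the strand of the gene.
ASNS: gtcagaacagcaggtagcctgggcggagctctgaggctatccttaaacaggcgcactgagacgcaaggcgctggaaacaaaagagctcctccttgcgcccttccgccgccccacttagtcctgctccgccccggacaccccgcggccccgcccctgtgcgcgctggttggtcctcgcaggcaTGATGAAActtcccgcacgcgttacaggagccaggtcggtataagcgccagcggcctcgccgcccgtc
Of the 10 member promoters, each a window of 250 bases before to 50 after the start, 3 held these letters on either strand, those of ASNS, ATF3 and CHAC1. Of all 27305 promoters 3.67% did, as did 1.66% of those of genes above 50. The members were chosen as genes of this response, so their share is no independent evidence. The stretches around the other matches are given for comparison, from chr1:212565200-212565239 (plus strand, 191 to 184 bases before the ATF3 start) and chr15:40953246-40953285 (plus strand, 209 to 202 bases before the CHAC1 start, where the match is on the opposite strand).
ATF3: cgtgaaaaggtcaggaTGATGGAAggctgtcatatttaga
CHAC1: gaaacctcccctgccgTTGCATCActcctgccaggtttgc
Of these 3 genes ASNS alone was above 50, so that the ratios of the others could not be set beside it. TRIB3 and SESN2, known ATF4 targets, had no match in these windows, which says only that the letters are not there.

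ATF4 had 1 probe set, 200779_at, with a signal of 2117 on the control array and 1460 on the MYC siRNA array. Its signal was 31.1% lower, a log2 ratio of -0.54 against an SD of 0.17 between probe sets of bright genes. In this range of signal ratios were low in general, with a median of -0.10 among the 500 nearest probe sets, and 9.4% of these had a ratio at least as low as ATF4. After loess of the ratio on mean signal the log2 ratio of ATF4 was -0.44, and after quantile normalization -0.46. The direction of ATF4 was kept with these scalings.

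The promoter of ATF4 was the only member promoter with the letters CACGTG, the E-box that MYC binds as a dimer with MAX. These letters stood 82 to 77 bases before the start. They occurred in 7.43% of all promoters and in 11.1% of those of genes above 50, so that 1 of 10 members is near the common share. The stretch around the ATF4 match, on chr22:39520461-39520498 (GRCh38.p14, plus strand), is shown because MYC was the target of the siRNA, with the E-box in capitals.
ATF4: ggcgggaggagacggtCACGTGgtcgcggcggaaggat
A match of these letters is a description of the sequence and does not show that MYC was bound there. The arrays hold no measurement of binding.

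CEBPG, a C/EBP protein without an activation domain of its own that pairs with ATF4, had 2 probe sets with like values. With 204203_at the signal was 359 without and 318 with MYC siRNA, a log2 ratio of -0.18. Those of 225527_at were 281 and 237, a log2 ratio of -0.24. Both lay near the SD of 0.22 between probe sets of genes in the middle range, and 32.8% and 24.6% of probe sets of like signal had ratios at least as low. Differences of this size are as large as the spread between probe sets.

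ATF5, which like ATF4 is translated when eIF2 is phosphorylated, had 4 probe sets, of which 1 was above 50. That probe set, 204998_s_at, read 193 (control siRNA) and 164 (MYC siRNA), for a log2 ratio of -0.23 against an SD of 0.24. Another, 204999_s_at, was just under 50 at 46.9 and 45.3, and the other two were under 3 on both arrays. ATF3, a repressor and activator induced by many stresses, had all 3 probe sets at or under 50. Its brightest, 202672_s_at, was at 32.6 on the control and 41.9 on the MYC siRNA array, while 1554980_a_at went the other way, from 30.3 to 26.8, as did 1554420_at, from 15.4 to 11.2. No direction can be given for ATF3.

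DDIT3, the factor linked to cell death in unresolved stress, was also close to the floor. Its 1 probe set, 209383_at, had signals of 64.7 on the control array and 75.1 on the MYC siRNA array. The log2 ratio of 0.21 was smaller than the SD of 0.24, and 41.8% of probe sets of like signal had a ratio at least as high. It was 0.12 after loess and 0.09 after quantile normalization. The ratio of DDIT3 was thus in the middle of those of genes as dim.

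**Figure D2:**
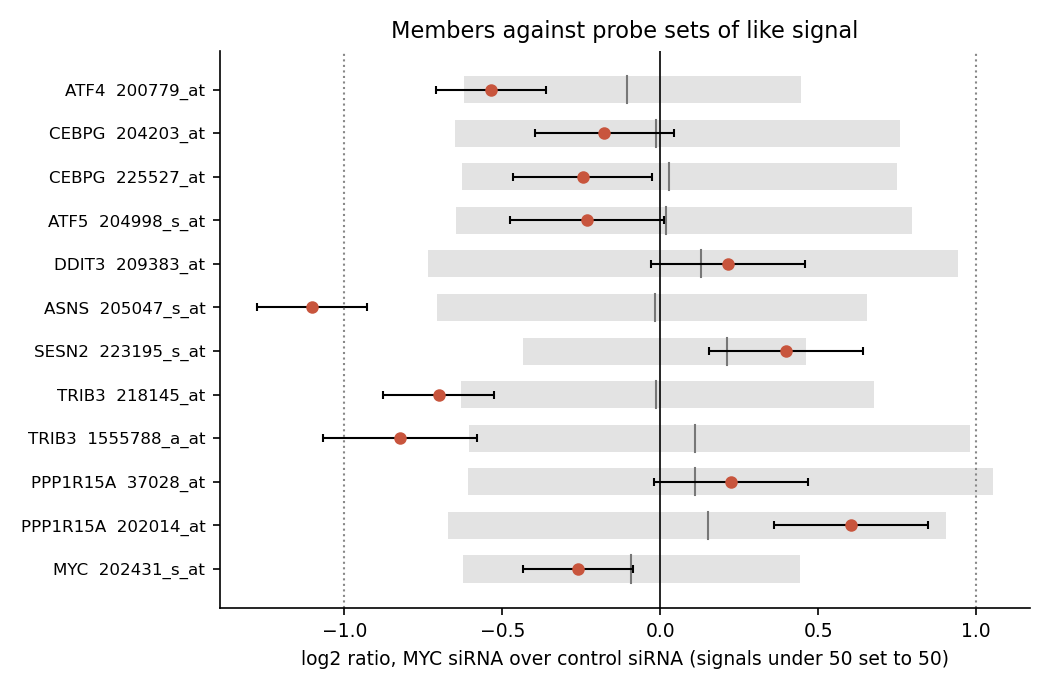
Log2 ratio (x axis, MYC siRNA over control) for the 11 member probe sets above 50 on at least 1 array and for MYC, as red points whose bars are the SD between probe sets of the same gene in that range of signal. Grey boxes span the 5th to 95th percentile of the 500 probe sets nearest in signal, with their median as a grey line, and dotted lines mark 2-fold; only ASNS and both TRIB3 probe sets lie to the left of their boxes.

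TRIB3, a pseudokinase induced by ATF4 and DDIT3 that holds back their activity, was lower in both of its probe sets. The brighter, 218145_at, read 561 on the control and 345 on the MYC siRNA array (log2 ratio -0.70, 1.63-fold lower), and the dimmer, 1555788_a_at, read 148 and 83.6 (log2 ratio -0.82, 1.77-fold lower). Both differences were beyond the SD between probe sets, at 0.17 and 0.24. Ratios at least as low were found in 3.6% and 1.2% of probe sets of like signal, and TRIB3 ranked 279th from the lowest of 8917 genes. Only CEBPG, TRIB3 and PPP1R15A had 2 probe sets with a ratio, and of these TRIB3 alone passed 1.5-fold in both.

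PPP1R15A, known as GADD34, directs protein phosphatase 1 to eIF2 and so ends the response. Its brighter probe set, 37028_at, read 101 on the control and 118 on the MYC siRNA array, a log2 ratio of 0.22, within the SD of 0.24. The dimmer, 202014_at, read 55.2 and 83.9, a log2 ratio of 0.60 (1.52-fold higher). Among probe sets of like signal 38.8% and 22.6% had ratios at least as high. The direction of both was the same, although the dim range as a whole had ratios above 1, with medians of 0.11 and 0.15 in these neighbourhoods.

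The PPP1R15A promoter was the only member promoter with TGACGTCA, the cAMP response element to which ATF and CREB dimers bind. The match lay 58 to 51 bases before the start, and 1.98% of all promoters and 3.37% of those of genes above 50 held it. It is shown on chr19:48872347-48872386 (GRCh38.p14, plus strand), as the only match of this kind among the members.
PPP1R15A: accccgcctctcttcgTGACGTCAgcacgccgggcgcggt

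SESN2, a leucine sensor that restrains mTORC1 through the GATOR complexes, was above 50 only with MYC siRNA. The signals of 223195_s_at were 43.3 and 65.9 with control and MYC siRNA, which is at least 1.32-fold higher. Those of 223196_s_at were 35.5 and 49.6, both under the floor, and so without a ratio. With signals under 25 set to 25 the log2 ratio of SESN2 was 0.61. CHAC1, a glutathione-degrading enzyme and a sensitive target of ATF4, had 1 probe set, 219270_at, at 39.4 on the control array and 44.5 on the other. It was below the floor on both arrays, and a change in CHAC1 could not be measured.

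**Figure D3:**
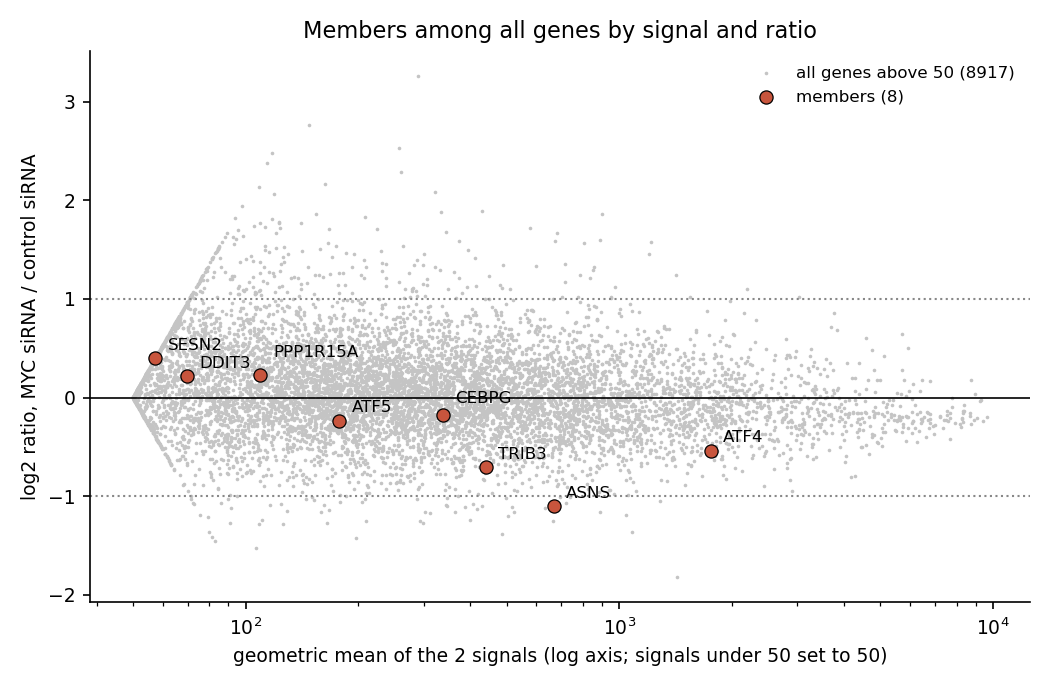
Log2 ratio (y axis, MYC siRNA over control) against the geometric mean of the 2 signals (x axis, log scale) for 8917 genes above 50 (grey) and the 8 members among them (red), with dotted lines at 2-fold and signals under 50 set to 50. ASNS lies below the lower dotted line, TRIB3 and ATF4 between it and 0, and SESN2, DDIT3 and PPP1R15A at the dim end of the plot.

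Relatives of the members by sequence were examined to see whether the differences extended to them. CHAC2, which like CHAC1 degrades glutathione, was 1.90-fold lower, from 502 to 265 (log2 ratio -0.92). PPP1R15B, the constitutive partner of the eIF2 phosphatase, was 1.41-fold lower, from 752 to 535. For ASNSD1, whose product resembles asparagine synthetase, the signals were 782 and 620 (log2 ratio -0.34). SESN1 was at 66.8 and 58.2. The tribbles gene TRIB1 was at 2029 and 2238, a log2 ratio of 0.14, and so did not share the lower value of TRIB3. The C/EBP genes CEBPA, CEBPB and CEBPD had log2 ratios of 0.05, -0.03 and 0.26, the last above its SD of 0.22. SESN3, TRIB2 and JDP2 were at or under 50.

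Upstream of ATF4, the eIF2 kinases and their inputs had 3 of 9 genes lower, 6 higher, 0 past 1.5-fold and a median log2 ratio of 0.05. Once probe sets with several possible transcripts were left out, 5 were lower and 3 higher, at a median of -0.08, so that the list has no settled direction. EIF2AK3, known as PERK and activated by unfolded protein, was at 175 and 165 with control and MYC siRNA. OMA1, which with DELE1 signals mitochondrial stress, had a log2 ratio of 0.41. For DELE1 (0.55 at the brightest probe set) and EIF2AK4 (0.50), the kinase that senses uncharged tRNA, other probe sets had log2 ratios of -0.31 and -0.38, so that no direction can be given. GCN1, which activates EIF2AK4, was 1.26-fold lower.

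Of 12 subunits of eIF2, its exchange factor eIF2B and its phosphatase, 10 had lower and 2 had higher signals, 3 passed 1.5-fold downwards, and the median log2 ratio was -0.37. Over all genes above 50, 46.5% were lower and 5.72% were lower by at least 1.5-fold. With no floor and 1 added, after quantile normalization or after loess, 2 of the subunits passed 1.5-fold downwards. EIF2B3 was 1.56-fold lower, from 243 to 156, and PPP1CC, a catalytic subunit of the phosphatase, read 3289 and 2193, a log2 ratio of -0.59. EIF2S1, the subunit that is phosphorylated, was 1.59-fold lower at its brightest probe set, but its other two had log2 ratios of 0.37 and 0.06.

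Downstream, the genes of amino acid supply that ATF4 is known to induce had ratios below 1 in most cases. All 9 enzymes of amino acid and folate-bound carbon metabolism above 50 were lower, 4 passing 1.5-fold, at a median log2 ratio of -0.55. Among all genes above 50 the shares were 46.5% lower and 5.72% lower by at least 1.5-fold. CTH, at 58.7 with control and 47.7 with MYC siRNA, counts among the 9 enzymes only through its control signal. It could not have come out higher. PSAT1, of serine synthesis, was 2.06-fold lower, from 1845 to 894, near the value of ASNS. SHMT2, which passes carbon from serine to folate in mitochondria, was 1.78-fold lower, and GOT1, the aspartate aminotransferase, 1.71-fold lower. Of 13 such enzymes written in the list, 3 were at or under 50 and 1 had no probe set of its own.

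The transporters were divided, with 5 of 8 lower and 3 higher and a median log2 ratio of -0.31. SLC1A4 was above 50 only with MYC siRNA (35.5 and 65.9) and SLC43A1 only with control siRNA (54.3 and 39.3). The floor thus fixed the direction of both. With signals under 100 set to 100, which leaves them out, 4 were lower and 2 higher, at a median of -0.55. SLC7A5, which carries leucine and other large neutral amino acids, was 2.57-fold lower, from 1736 to 675. The glutamine carrier SLC1A5 was 1.68-fold lower and the arginine carrier SLC7A1 1.51-fold lower. SLC7A11, which imports cystine, had signals of 1112 and 1383, a log2 ratio of 0.32, and 2 further probe sets with ratios above 1. SLC38A2 was at 1705 and 1770. Not every ATF4-responsive carrier was therefore lower.

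All 12 cytosolic tRNA synthetases above 50 were lower at their brightest probe sets, and 4 passed 1.5-fold, at a median log2 ratio of -0.41. Of all genes above 50, 46.5% were lower and 5.72% were lower by at least 1.5-fold. AARS1 (-0.12) and CARS1 (-0.17) were within the SD of 0.17 between probe sets, and another probe set of LARS1 had a log2 ratio of 0.14. After quantile normalization, loess or the mean over probe sets 2 passed, and of the 6 that keep a probe set with a single transcript 1 passed, at a median of -0.22. YARS1 was 1.90-fold lower, VARS1 1.72-fold and TARS1 1.56-fold. The letters TGATGNAA, found in the ASNS promoter, occurred in 6 of the 10 synthetase promoters held by RefSeq, in 2 of 8 enzyme promoters and in 2 of 8 transporter promoters. The 6 were those of AARS1, CARS1, NARS1, IARS1, TARS1 and MARS1. The first 3 had log2 ratios of -0.12, -0.17 and -0.18, IARS1 and TARS1 of -0.62 and -0.64, and MARS1 had no probe set of its own. The genes of the synthetase, enzyme and transporter lists were written down as ATF4 targets, so the share of matches is no independent evidence. Many of these genes are also known targets of MYC, and regulation through ATF4 and through MYC cannot be told apart on these arrays.

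The stress effectors had no common direction. Of 14 above 50, 9 were lower and 5 higher, with a median log2 ratio of -0.08. EIF4EBP1, an inhibitor of cap-dependent translation, was 2.13-fold lower, from 504 to 236, and VEGFA, the angiogenic factor, was 1.72-fold lower. SQSTM1, the autophagy receptor p62, was 1.55-fold higher, from 1630 to 2534, with another probe set at 2.06-fold. HMOX1, heme oxygenase, had a log2 ratio of 0.50. For the secreted stress factor GDF15 the signals were 581 and 501, and for DDIT4, an inhibitor of mTORC1, 132 and 121. NUPR1, FGF21, STC2, VLDLR and LAMP3 were at or under 50.

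Genes of the XBP1 and ATF6 arms of the unfolded protein response were lower in 15 and higher in 6 of 21, and the median log2 ratio was -0.23. By at least 1.5-fold 2 of them were lower, against 5.72% of all genes above 50, of which 46.5% were lower at all. HSPA5, the chaperone BiP, was 1.59-fold lower, from 3541 to 2234, and CRELD2 1.57-fold lower, while EDEM1, of endoplasmic reticulum-associated degradation, was 1.45-fold higher. The median was -0.10 after loess and -0.09 after quantile normalization. Of the partners of SESN2 and CHAC1, the GATOR2 subunits SEH1L and SEC13 were 1.72-fold and 1.67-fold lower, and 10 of the 11 genes of GATOR and glutathione metabolism above 50 were lower, with a median of -0.16. The 1 higher gene, GSS, had log2 ratios of 0.34 and 0.26 in its 2 probe sets. After quantile normalization 8 of these genes were lower (median -0.12) and after loess 7 (median -0.10), and of the 5 that keep a probe set with a single transcript 3 were lower (median -0.05) and 0 passed 1.5-fold. The difference between the supply genes and the other lists was not tested.

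**Figure D4:**
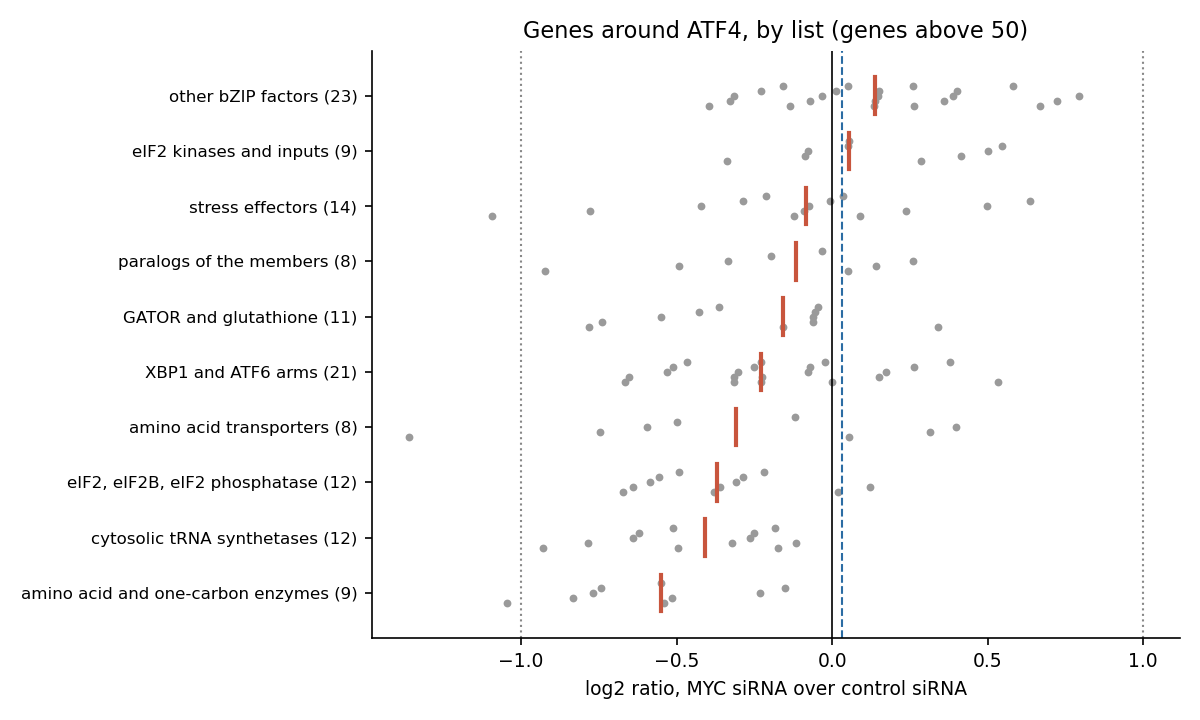
Log2 ratios (x axis, MYC siRNA over control) in 10 lists around ATF4, where each grey point is a gene above 50 and the brackets give the number of genes. Red bars mark the median of each list, the blue dashed line is the median of all genes above 50 (0.03) and dotted lines mark 2-fold; the medians run from 0.14 for other bZIP factors to -0.55 for amino acid and one-carbon enzymes.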

How the data were processed

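Total RNA of HT-29 cells was hybridised to Affymetrix Human Genome U133 Plus 2.0 arrays, 1 per condition. The intensity values deposited by the authors are MAS5 signals on a linear scale, made with the R package affy 1.40.0 with a scaling of each array to a mean target of 100. Low signals are kept as they are in the deposited values, and the floor of 50 used for ratios follows the methods of the study. A single gene is given by the platform annotation for 41097 probe sets, and symbols were updated to RefSeq for GRCh38.p14.

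Signals under 50 were set to 50 and the log2 ratio was taken. A gene took its probe set with the highest mean signal. The members, lists and rules were chosen with earlier results of these data known. A rule picked from each list up to 3 genes with the largest ratio each way among those reaching a signal of 100. Not all of these picks are named in the text. The relatives of the members above 50 are named, and some others chosen after their values were seen. Position among the 500 probe sets nearest in mean log2 signal is a description and no p-value. The number of arrays limits the precision. Motifs were searched on both strands in RefSeq promoters, with 1 start taken per gene, and all 10 members had 1. Alternatives were other floors (25, 100, or none with 1 added), median centring, quantile normalization, loess (span 0.3), omission of probe sets whose suffix marks several possible transcripts, the mean over probe sets, and a brighter signal of at least 100. The calculations were tested on simulated arrays. Python 3.11.15, numpy 2.4.6, pandas 2.3.3, statsmodels 0.14.6 and matplotlib 3.10.9 were used.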

Additional observations from a re-analysis of the deposited data

How the results depend on the processing

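No paired analysis was possible because each condition has 1 array. All 8 members above 50 kept their direction under every floor, scaling and choice of probe set that left them a ratio. A floor, or 1 added to both signals, cannot reverse a direction, so those settings could not have come out otherwise. ATF4, ASNS, ATF5, DDIT3 and SESN2 had 1 probe set above 50 each, so only the scalings could have reversed them. Over the alternatives the log2 ratio of ATF4 ranged from -0.54 to -0.44, that of TRIB3 from -0.76 to -0.68 and that of DDIT3 from 0.09 to 0.21. The log2 ratio of ASNS was -0.55 with the mean over probe sets, because its other probe set counts as unchanged there, so that 1 member was lower by at least 1.5-fold and 0 by at least 2-fold. Without probe sets that can bind several transcripts ASNS, ATF5 and SESN2 have no ratio, and 5 members were measured, 3 of which were lower, 1 past 1.5-fold and 0 past 2-fold. In that setting the median of the stress effectors was 0.16 and that of the eIF2 kinases and inputs -0.08, both with a change of sign. With signals under 25 set to 25, 5 members were higher, 1 of them (SESN2) by at least 1.5-fold, and with no floor and 1 added 1 was. Only 1 member was higher with signals under 100 set to 100 or a brighter signal of at least 100. The other list medians moved by less than 0.24, the SD between probe sets of dim genes and the largest such SD. Over the alternatives the median of the transporters ranged from -0.55 to -0.31 and that of the synthetases from -0.42 to -0.22. Low signal limits what can be said of ATF3, CHAC1, SESN2, DDIT3 and PPP1R15A.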

Other observations

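Other factors of the bZIP family, with which ATF4 and its relatives can pair, were higher in 15 and lower in 8 of the 23 above 50, with a median log2 ratio of 0.14. By at least 1.5-fold 3 were higher, the AP-1 genes JUND (466 and 808 with control and MYC siRNA), FOSL2 (166 and 274) and FOS (65.6 and 104), and 0 were lower. Of all genes above 50, 10.4% were higher by that much, and with the mean over probe sets 1 of the 23 was. JUN was at 861 and 1128. The dimmest FOSL2 probe set above 50 had a log2 ratio of 0.13. FOSL1 was at 174 and 132, a log2 ratio of -0.39.

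Over all genes above 50 with a promoter in the RefSeq table, the 124 whose promoter holds TGATGNAA had a median log2 ratio of -0.07, and the others 0.03. The 829 genes with CACGTG had a median of -0.05 and the others 0.04. These are descriptions across genes of 2 arrays, and the signal of the groups was not matched.

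Probe sets of BCL2L11, which encodes a pro-apoptotic protein of the BCL2 family, disagreed, with log2 ratios between -1.16 and 0.03 in its 3 probe sets above 50.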
